A study of Sus scrofa with 8 samples.

Results

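Potassium, sodium and chloride channel genes were followed in limb muscle of pig embryos that lacked or kept the myogenic factors MYF5, MYOD and MYF6. The genes were taken by name: every row of the count table whose mapped symbol starts with KCN, with CLCN, or with SCN and a digit. This gave 109 genes among 22516 rows, of which 15527 had a symbol. They comprised 89 KCN, 13 SCN and 7 CLCN genes. Of these, 92 had enough counts to be tested, 14 had counts but too few, and 3 (KCNA10, KCNJ1 and KCNV2) had 0 counts in all 8 libraries. The rule itself uses names alone. Bulk RNA sequencing covered 4 groups of 2 libraries each: triple-knockout (KO) embryos on embryonic day 41 (E41), KO embryos on day 62 (E62), and wild-type (WT) embryos at E41 and at E62. Titles call the libraries biological replicates, and the names of the KO E62 libraries carry different embryo numbers, but litters are not given, nor embryos for the other groups. The p-values reflect only how far these samples vary, which may be technical. The series title speaks of knockdown where the sample labels say knockout, and day 60 stands in the growth protocol in place of day 62. Neither breed nor sex, nor the design of the alleles, nor whether the KO embryos are of 1 clone is stated in the labels.

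Ion channels set the excitability of muscle fibres and nerve. Voltage-gated sodium channels carry the upstroke of the action potential, potassium channels repolarise the membrane and hold its resting potential, and in mature skeletal muscle the chloride channel encoded by CLCN1 damps repeated firing. Fetal muscle fibres acquire their adult set of channels as they are innervated, and MYF5, MYOD and MYF6 are transcription factors that commit cells to the skeletal muscle lineage. A limb also holds nerve, Schwann cells, vessels, cartilage and skin, each with channels of its own.

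Total counts per library were between 23402052 and 60539245. MYF5 and MYF6 had 0 counts in all 4 KO libraries. MYOD1 kept 28 and 20 counts in KO E41 and 77 and 88 in KO E62, against 1503 and 2161 in WT E41 and 5715 and 5203 in WT E62. The labelled tissue is limb muscle, and the summed level of 10 skeletal muscle markers was 26.2 to 29.5 CPM in KO E41, 14.3 to 18.1 in KO E62, 11851 to 13703 in WT E41 and 31204 to 38878 in WT E62; all 10 were lower in KO at both stages, and MYOG was at 0 in KO E62 replicate 2 and had 1 count in replicate 1. In whole-tissue RNA, fewer cells of a type and less RNA per cell cannot be told apart. Library names carry 1 number per group, so group and any batch that number marks cannot be told apart. The names of both WT E41 libraries hold the code LHL and the other 6 RHL, and the KO E62 names lack a suffix that the others have; whatever these mark cannot be told apart from the comparisons between KO and WT at E41, between the stages in WT, or of KO E62 with other groups. The replicates of KO E62 had the lowest correlation of log CPM (counts per 1000000 of the scaled library total) over all tested genes (Pearson's r 0.965, against 0.978 to 0.987 in the other groups). Markers of other tissues were counted by the same test. Over all genes 18.5% were higher and 20.8% lower in KO at E41, and 21.0% higher and 26.2% lower at E62. Of 10 tested neuron markers 1 was higher in KO at E41 and 5 at E62. The list summed to 463 to 467 CPM in KO E41 and 69.9 to 121 in KO E62. In WT it summed to 310.4 to 487 CPM at E41 and 19.02 to 33.5 at E62. ELAVL3, too low to test, had 2 and 1 counts in KO E41, 0 and 1 in KO E62 and 0 in both WT groups. Of 9 smooth muscle and pericyte markers, 1 was higher and 4 lower at E41, and 2 higher and 5 lower at E62. All 8 macrophage markers were higher in KO at E62, with 2 higher and 1 lower at E41. Of 7 endothelium markers, 3 were higher at E41 and 5 at E62. Single libraries stood apart in the sums of other lists. The 4 epidermis markers summed to 1244 and 707 CPM in KO E41 and 638 and 45.1 in KO E62, against 579 and 941 in WT E41 and 16.8 and 16.9 in WT E62. The 6 cartilage markers summed to 354 and 3535 CPM in KO E41 and 107 and 41.3 in KO E62, against 889 and 265 in WT E41 and 88.3 and 62.3 in WT E62. The part of these tissues in the channel results was not tested.

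Channel genes changed about as often as other genes. Levels are CPM scaled by trimmed mean of M values (TMM), given as replicate 1 and replicate 2, and fold changes are log2 of KO over WT with their standard error. In edgeR's quasi-likelihood F test with Benjamini-Hochberg adjustment over 17020 genes, an adjusted p under 0.05 counted as a call. At E41, 18 channel genes were higher and 19 lower in KO, 40.2% of the 92 tested, against 39.2% of all genes (18.5% higher, 20.8% lower). At E62, 18 were higher and 28 lower, against 47.2% of all genes (21.0% higher, 26.2% lower). The median log2 fold change of the 92 genes was 0.31 at E41 and -0.049 at E62, beside 0.089 and 0.060 over all genes. In 72 of the 92 channel genes at E41 and 64 of the 92 at E62 the KO and WT libraries did not overlap. Over all 17020 genes this held for 12483 (73.3%) at E41 and 13171 (77.4%) at E62. Each gene called in either comparison had groups that did not overlap.

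The split by direction depended on the scaling. With library size alone, which moved the median of all genes up by 0.290 at E41 and 0.305 at E62, 26 channel genes were higher and 15 lower at E41, and 25 were higher and 25 lower at E62. The count at E41 was also sensitive to single libraries: 20 genes were called when KO E41 replicate 1 was left out and 22 when KO E41 replicate 2 was. In every one of 14 alternatives 17 of the 37 calls at E41 and 35 of the 46 at E62 held. Across both stages, 9 genes were higher in KO at each stage, 16 were lower at each stage and 35 were called at neither. The same joint counts are not given over all genes, so these are not read as particular to channel genes.

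**Figure D1:**
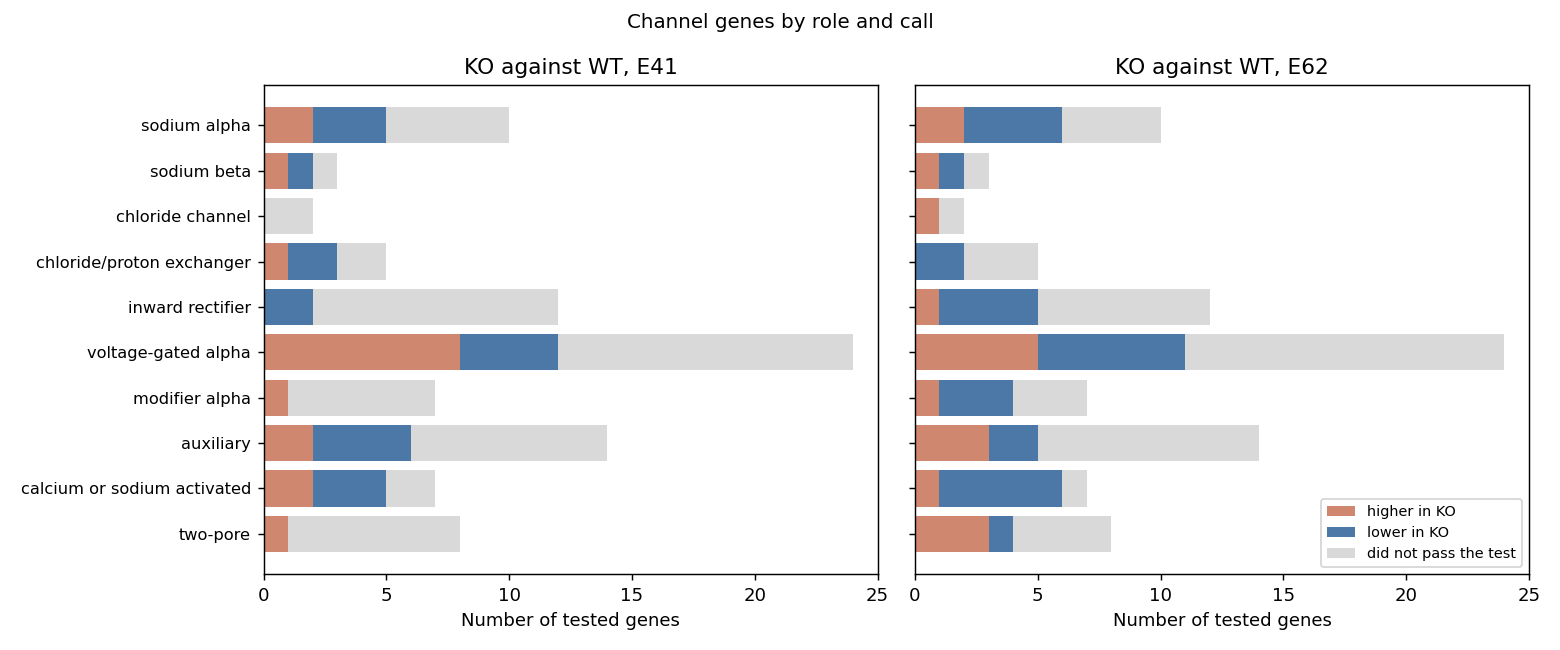
Number of tested channel genes in each role group (rows) that were higher in KO, lower in KO or did not pass the test, at E41 (left) and E62 (right). Of the voltage-gated alpha subunits 8 were higher and 4 lower at E41, and 5 higher and 6 lower at E62; of the calcium- or sodium-activated channels 5 of 7 were lower at E62.

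Sodium channel alpha subunits, which form the pore, moved in both directions. Of 10 genes, 2 were higher and 3 lower in KO at E41, and 2 higher and 4 lower at E62. Calls made up 50% at E41 and 60% at E62, beside 39.2% and 47.2% of all genes. SCN4A, at chr12:15001356-15048092 in the Sscrofa11.1 build, encodes the principal sodium channel of skeletal muscle. At E41 it had 0.108 and 0.347 CPM in KO libraries, against 3.62 and 4.29 CPM in WT libraries (log2 fold change -4.11 ± 0.42, adjusted p = 0.00045). At E62 it had 0.295 and 0.317 CPM in KO libraries, against 36.0 and 53.6 CPM in WT libraries (log2 fold change -7.18 ± 0.41, adjusted p = 1.5e-05). The highest KO library, at 0.347 CPM, stayed below the lowest WT library, at 3.62 CPM. SCN10A, known from sensory neurons, fell at both stages as well. It had 0.108 and 0.0869 CPM in KO libraries, against 2.37 and 2.74 CPM in WT libraries at E41 (log2 fold change -4.67 ± 0.44, adjusted p = 0.00022), and 0.0885 and 0.0834 CPM in KO libraries, against 3.58 and 2.68 CPM in WT libraries at E62 (log2 fold change -5.14 ± 0.43, adjusted p = 6.8e-05). SCN7A, whose product senses sodium rather than voltage and is known from glia, had 4.67 and 3.63 CPM in KO libraries, against 19.8 and 23.9 CPM in WT libraries at E41 (log2 fold change -2.398 ± 0.22, adjusted p = 0.00020). At E62 SCN7A had 5.62 and 6.17 CPM in KO libraries, against 31.1 and 44.8 CPM in WT libraries (log2 fold change -2.68 ± 0.22, adjusted p = 5.6e-05). Of 9 Schwann cell markers, 2 were higher and 2 lower in KO at E41, and 1 higher and 3 lower at E62. This was 44.4% called at each stage, beside 39.2% and 47.2% of all genes. Their summed levels were 317 to 396 CPM in KO E41, 178 to 194 in KO E62, 559 to 597 in WT E41 and 693 to 721 in WT E62. The part of these markers in the SCN7A result was not tested.

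SCN3A, the sodium channel of embryonic brain, went the other way. At E62 it had 25.8 and 26.8 CPM in KO libraries, against 0.241 and 0.442 CPM in WT libraries (log2 fold change 6.25 ± 0.58, adjusted p = 0.00021). At E41 SCN3A had 8.01 and 8.598 CPM in KO libraries, against 4.78 and 1.55 CPM in WT libraries (log2 fold change 1.398 ± 0.45, adjusted p = 0.047), and the WT libraries lay apart from each other. SCN3A lost its call at E41 in 9 of 14 alternatives, without the low-count filter, with the replicate block, and without KO E41 replicate 1 or 2, WT E41 replicate 2, KO E62 replicate 1 or 2 or WT E62 replicate 1 or 2 (adjusted p = 0.054 to 0.15). SCN3A kept its call but had a log2 fold change at E41 of 2.46 without WT E41 replicate 1. SCN8A, the sodium channel of mature nodes of Ranvier, had 5.43 and 5.14 CPM in KO libraries, against 0.722 and 1.06 CPM in WT libraries at E62 (log2 fold change 2.56 ± 0.35, adjusted p = 0.00077) and did not pass the test at E41 (0.66 ± 0.33, adjusted p = 0.15). SCN1A, a neuronal channel, had 1.37 and 2.84 CPM in KO libraries, against 7.22 and 13.7 CPM in WT libraries at E62 (log2 fold change -2.32 ± 0.44, adjusted p = 0.0038), with KO and WT levels close at E41 (2.304 and 3.13 CPM in KO, against 1.93 and 1.68 in WT; 0.59 ± 0.45, adjusted p = 0.33). SCN2A, SCN9A and SCN11A passed the test at neither stage. Of the neuron markers given above 5 of 10 were also higher in KO at E62, while of 15 neuronal and axonal channels 3 were higher and 7 lower. That channel list includes SCN3A, SCN8A and SCN1A themselves. Over all genes 21.0% were higher and 26.2% lower at E62. The part of these markers in the rise of SCN3A and SCN8A, or in the fall of SCN1A, was not tested.

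Sodium channel beta subunits trim the gating and placement of the pore. SCN3B stood out for its level in WT muscle, 268 and 235 CPM at E41 and 204 and 329 CPM at E62. In KO libraries it fell to 4.18 and 4.39 CPM at E41 (log2 fold change -5.87 ± 0.41, adjusted p = 0.00023) and to 16.9 and 31.2 CPM at E62 (log2 fold change -3.47 ± 0.36, adjusted p = 0.00062). The ranges were far apart at both stages. SCN2B, which is linked to the pore by a disulfide bond, rose instead. It had 25.3 and 36.04 CPM in KO libraries, against 13.8 and 7.87 CPM in WT libraries at E41 (log2 fold change 1.51 ± 0.27, adjusted p = 0.0047), and 12.998 and 12.9 CPM in KO libraries, against 5.32 and 6.07 CPM in WT libraries at E62 (log2 fold change 1.19 ± 0.28, adjusted p = 0.010). SCN2B lost its call at E62 without WT E62 replicate 1 (adjusted p = 0.078).

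**Figure D2:**
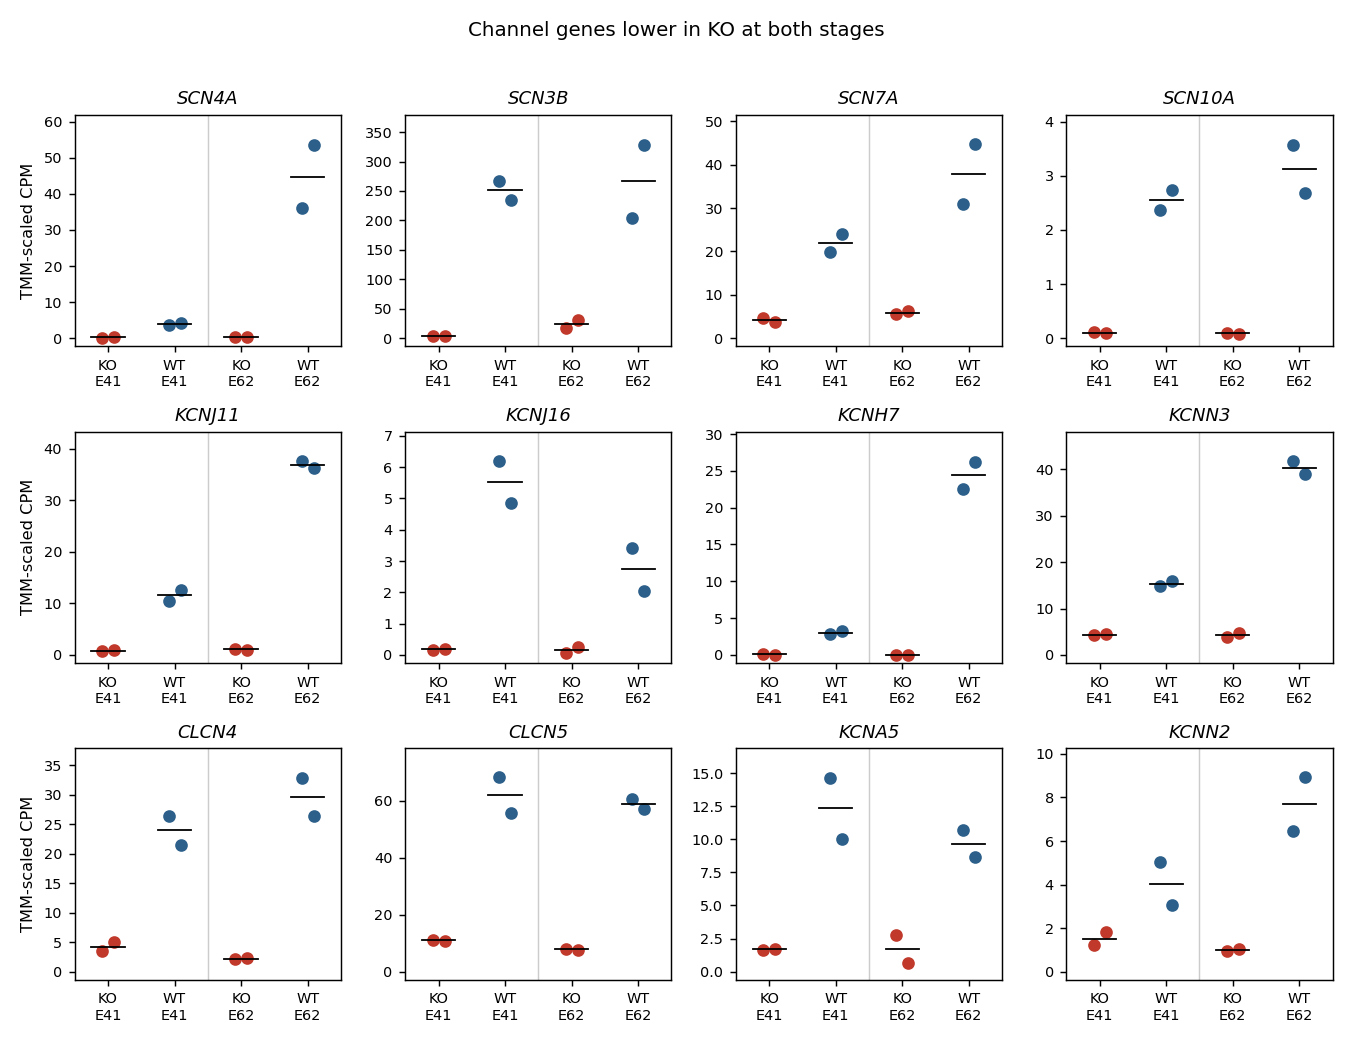
TMM-scaled CPM (y axis) of 12 channel genes lower in KO at both stages, in KO and WT libraries at E41 and E62 (x axis); points are libraries and bars are the means of 2. SCN4A is at 0.295 and 0.317 CPM in KO E62, against 36.0 and 53.6 CPM in WT E62, and no KO point overlaps the WT points of its stage.

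Chloride channels and chloride/proton exchangers of the CLC family numbered 7, all tested. CLCN4 and CLCN5, exchangers of endosomes, fell at both stages. CLCN5 had 10.96 and 10.9 CPM in KO libraries, against 68.2 and 55.5 CPM in WT libraries at E41 (log2 fold change -2.499 ± 0.12, adjusted p = 5.9e-06). At E62 CLCN5 had 7.97 and 7.61 CPM in KO libraries, against 60.6 and 57.2 CPM in WT libraries (log2 fold change -2.92 ± 0.12, adjusted p = 1.6e-06). CLCN4 had 3.44 and 4.95 CPM in KO libraries, against 26.4 and 21.5 CPM in WT libraries at E41 (log2 fold change -2.51 ± 0.21, adjusted p = 0.00014), and 2.18 and 2.24 CPM in KO libraries, against 32.9 and 26.3 CPM in WT libraries at E62 (log2 fold change -3.74 ± 0.22, adjusted p = 1.1e-05). For both genes the KO libraries lay below the WT libraries at each stage. CLCN1, the channel behind the resting chloride conductance of mature muscle fibres, was low in every library, between 0.386 and 1.24 CPM. It had 0.5597 and 0.695 CPM in KO, against 0.386 and 0.487 in WT at E41 (0.52 ± 0.46, adjusted p = 0.40), and 1.18 and 1.02 CPM in KO, against 0.872 and 1.24 in WT at E62 (0.060 ± 0.41, adjusted p = 0.91). CLCN1 overlaps FAM131B in the RefSeq annotation, and whether reads were counted by strand is not given in the sources used here. CLCN2, a widely used chloride channel, rose at E62, with 12.3 and 18.6 CPM in KO libraries, against 6.89 and 5.39 CPM in WT libraries (log2 fold change 1.33 ± 0.24, adjusted p = 0.0031). At E41 CLCN2 had 6.695 and 8.36 CPM in KO, against 5.02 and 5.22 in WT (0.55 ± 0.25, adjusted p = 0.11), and it passed the test there with library size alone (adjusted p = 0.028). CLCN7, the lysosomal exchanger, was higher at E41, with 16.02 and 15.05 CPM in KO libraries, against 10.9 and 9.42 CPM in WT libraries (log2 fold change 0.61 ± 0.17, adjusted p = 0.025), and was not called at E62 (-0.23 ± 0.17, adjusted p = 0.29). CLCN7 lost its call at E41 in 3 of 14 alternatives, without KO E41 replicate 1 or 2 or WT E41 replicate 2 (adjusted p = 0.075 to 0.11). CLCN3 and CLCN6 passed the test at neither stage, with log2 fold changes at E41 of -0.22 and 0.296.

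Inward rectifiers pass potassium into the cell more readily than out of it and hold the resting potential. Of 12 tested genes, 2 were lower in KO at E41, and 1 was higher and 4 lower at E62. The called share was 16.7% at E41 and 41.7% at E62, beside 39.2% and 47.2% of all genes. KCNJ11, at chr2:41756637-41760340, encodes the pore of the ATP-sensitive potassium channel. It had 0.689 and 0.977 CPM in KO libraries, against 10.5 and 12.7 CPM in WT libraries at E41 (log2 fold change -3.79 ± 0.203, adjusted p = 1.1e-05), and 1.11 and 1.03 CPM in KO libraries, against 37.5 and 36.2 CPM in WT libraries at E62 (log2 fold change -5.101 ± 0.204, adjusted p = 1.3e-06). KO levels of KCNJ11 stayed near 1 CPM at both stages. KCNJ16, which forms mixed channels with other inward rectifiers, had 0.172 and 0.174 CPM in KO libraries, against 6.18 and 4.87 CPM in WT libraries at E41 (log2 fold change -4.97 ± 0.61, adjusted p = 0.00069), and 0.0738 and 0.267 CPM in KO libraries, against 3.43 and 2.03 CPM in WT libraries at E62 (log2 fold change -3.9996 ± 0.58, adjusted p = 0.0010). Among the G-protein-gated rectifiers, KCNJ3 and KCNJ6 parted at E62. KCNJ3 fell, with 0.148 and 0.217 CPM in KO libraries, against 1.65 and 2.65 CPM in WT libraries (log2 fold change -3.55 ± 0.43, adjusted p = 0.00043). KCNJ6 had 276 and 205 counts in KO E62, against 3 and 0 counts in WT E62, a ratio of scaled counts 84.4-fold higher (95% interval 28.7 to 411), adjusted p = 0.0029. Neither passed the test at E41, where KCNJ3 had 2.39 and 2.71 CPM in KO, against 2.42 and 3.41 in WT (-0.19 ± 0.37, adjusted p = 0.72). KCNJ6 at E41 had 5.73 and 4.43 CPM in KO, against 1.16 and 5.26 in WT (0.66 ± 0.69, adjusted p = 0.49). KCNJ4 had 0.0738 and 0.0667 CPM in KO libraries, against 0.481 and 0.471 CPM in WT libraries at E62 (log2 fold change -2.71 ± 0.59, adjusted p = 0.0067). KCNJ2, the classical inward rectifier of muscle, overlapped between the genotypes at both stages, with 6.803 and 10.4 CPM in KO, against 9.42 and 7.79 in WT at E41 (0.00035 ± 0.34, adjusted p = 1.00), and 7.13 and 9.86 CPM in KO, against 14.6 and 8.01 in WT at E62 (-0.41 ± 0.33, adjusted p = 0.34). KCNJ8, the pore of vascular ATP-sensitive channels, ranged from 17.8 to 37.3 CPM over the 8 libraries and was called at neither stage. KCNJ5, KCNJ10, KCNJ13, KCNJ14 and KCNJ15 also passed neither genotype test. KCNJ5, a G-protein-gated rectifier known from the heart, was low throughout, with 10 and 35 counts in KO E41 and 8 and 4 in KO E62, against 3 and 7 in WT E41 and 0 and 0 in WT E62.

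Voltage-gated potassium channel alpha subunits repolarise the action potential. Of 24 tested genes, 8 were higher and 4 lower in KO at E41, and 5 higher and 6 lower at E62. This was 50% called at E41 and 45.8% at E62, beside 39.2% and 47.2% of all genes. KCNH7, an ether-a-go-go-related channel, fell furthest at E62. It had 0.0443 and 0.0334 CPM in KO libraries, against 22.6 and 26.3 CPM in WT libraries at E62 (log2 fold change -9.18 ± 0.33, adjusted p = 7.1e-07), and 0.0861 and 0.0434 CPM in KO libraries, against 2.802 and 3.27 CPM in WT libraries at E41 (log2 fold change -5.49 ± 0.32, adjusted p = 1.9e-05). KCNH7 had only 4 and 2 counts in KO E41 and 3 and 2 in KO E62, so the size of these falls rests on few counts. The gene lies at chr15:69053456-69555144 and overlaps GCA in the annotation. KCNH2, the channel known as hERG in the heart, had 1.71 and 1.15 CPM in KO libraries, against 13.98 and 14.9 CPM in WT libraries at E62 (log2 fold change -3.33 ± 0.31, adjusted p = 0.00011), and 2.196 and 3.3004 CPM in KO libraries, against 5.17 and 6.95 CPM in WT libraries at E41 (log2 fold change -1.14 ± 0.29, adjusted p = 0.017). KCNH2 lost its call at E41 without KO E41 replicate 1 (adjusted p = 0.11) or WT E41 replicate 2 (0.094). KCNH6, a close relative of both, had 1 and 0 counts in KO E41, against 35 and 33 counts in WT E41, a ratio of scaled counts 145-fold lower (95% interval 25.2 to 5821), adjusted p = 0.0016. At E62 KCNH6 was low in both genotypes, with 9 and 17 counts in KO, against 2 and 6 in WT (0.79 ± 0.7997, adjusted p = 0.44). KCNH3, from the sister ELK branch and known from forebrain neurons, was higher at both stages. It had 1.49 and 1.45 CPM in KO libraries, against 0.145 and 0.177 CPM in WT libraries at E41 (log2 fold change 3.16 ± 0.59, adjusted p = 0.0045), and 1.25 and 0.734 CPM in KO libraries, against 0.0301 and 0.0883 CPM in WT libraries at E62 (log2 fold change 3.999 ± 0.64, adjusted p = 0.0016).

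KCNA5 and KCNA7 belong to the Shaker branch and are known from muscle. KCNA5 had 1.66 and 1.69 CPM in KO libraries, against 14.6 and 10.04 CPM in WT libraries at E41 (log2 fold change -2.88 ± 0.62, adjusted p = 0.012), and 2.76 and 0.634 CPM in KO libraries, against 10.7 and 8.66 CPM in WT libraries at E62 (log2 fold change -2.504 ± 0.61, adjusted p = 0.015). The KO E62 replicates of KCNA5 were apart. KCNA5 lost its call at E41 in 3 of 14 alternatives, without KO E41 replicate 1 or 2 or WT E41 replicate 1 (adjusted p = 0.057 to 0.078). KCNA5 lost its call at E62 without WT E62 replicate 1 (adjusted p = 0.062). KCNA5 kept its call but had a log2 fold change at E62 of -3.93 without KO E62 replicate 1. KCNA7 fell at E62 to 0.236 and 0.184 CPM in KO libraries, against 3.098 and 3.24 CPM in WT libraries (log2 fold change -3.89 ± 0.41, adjusted p = 0.00022), and was not called at E41 (-1.13 ± 0.41, adjusted p = 0.059). It overlaps NTF4 in the annotation.

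The Shal channels carry transient A-type current, and their genes differed from each other. KCND1 rose at both stages, with 11.13 and 10.9 CPM in KO libraries, against 4.299 and 5.397 CPM in WT libraries at E41 (log2 fold change 1.18 ± 0.199, adjusted p = 0.0029), and 6.82 and 7.63 CPM in KO libraries, against 2.74 and 3.21 CPM in WT libraries at E62 (log2 fold change 1.28 ± 0.199, adjusted p = 0.0015). KCND3 had 6.05 and 3.06 CPM in KO libraries, against 1.16 and 1.77 CPM in WT libraries at E41 (log2 fold change 1.63 ± 0.53, adjusted p = 0.043), and 1.58 and 0.834 CPM in KO libraries, against 0.1504 and 0.353 CPM in WT libraries at E62 (log2 fold change 2.25 ± 0.601, adjusted p = 0.017). Its KO replicates lay apart at both stages. KCND3 lost its call at E41 in 4 of 14 alternatives, with the replicate block, and without KO E41 replicate 1 or WT E41 replicate 1 or 2 (adjusted p = 0.075 to 0.27). KCND3 lost its call at E62 without KO E62 replicate 1 (adjusted p = 0.072) or WT E62 replicate 1 (0.10). KCND2 was called at E62 alone, where it fell to 5.09 and 8.79 CPM in KO libraries, against 24.3 and 21.1 CPM in WT libraries (log2 fold change -1.71 ± 0.298, adjusted p = 0.0032; at E41 0.56 ± 0.29, adjusted p = 0.17).

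KCNQ channels open slowly near the resting potential. KCNQ5, which smooth and skeletal muscle express, had 12.5 and 21.3 CPM in KO libraries, against 5.41 and 4.203 CPM in WT libraries at E41 (log2 fold change 1.81 ± 0.31, adjusted p = 0.0030), and 5.86 and 4.19 CPM in KO, against 4.78 and 5.51 in WT at E62 (-0.034 ± 0.297, adjusted p = 0.93). KCNQ1, the slow delayed rectifier of heart and epithelia, had 3.98 and 3.3004 CPM in KO libraries, against 2.13 and 1.02 CPM in WT libraries at E41 (log2 fold change 1.22 ± 0.39, adjusted p = 0.041), and 1.64 and 1.23 CPM in KO, against 3.04 and 2.59 in WT at E62 (-0.97 ± 0.38, adjusted p = 0.069). KCNQ1 lost its call at E41 in 5 of 14 alternatives, without KO E41 replicate 1 or 2, WT E41 replicate 2 or WT E62 replicate 1 or 2 (adjusted p = 0.059 to 0.18). KCNQ1 kept its call but had a log2 fold change at E41 of 1.88 without WT E41 replicate 1. KCNB2, a delayed rectifier, rose at E62, with 1.89 and 1.65 CPM in KO libraries, against 0.421 and 0.471 CPM in WT libraries (log2 fold change 1.98 ± 0.403, adjusted p = 0.0050; at E41 -0.22 ± 0.39, adjusted p = 0.68). The fast Shaw-type genes KCNC1 and KCNC4 were called at E41. KCNC4 had 1.64 and 2.37 CPM in KO libraries, against 0.338 and 0.575 CPM in WT libraries at E41 (log2 fold change 2.12 ± 0.53, adjusted p = 0.016), with overlap at E62 (1.45 and 1.67 CPM in KO, against 2.195 and 0.972 in WT; -0.024 ± 0.47, adjusted p = 0.97). KCNC1 had 15 and 12 counts in KO E41, against 0 and 0 in WT E41, at least 4.21-fold higher against a floor of 3 counts over the group, adjusted p = 0.032; at E62 it did not pass the test (-0.019 ± 0.799, adjusted p = 0.99). KCNC4 lost its call at E41 without KO E41 replicate 2 (adjusted p = 0.083) or WT E41 replicate 1 (0.076). KCNC1 lost its call at E41 in 4 of 14 alternatives, without KO E41 replicate 1 or 2 or WT E41 replicate 1 or 2 (adjusted p = 0.076 to 0.095). KCNA3, KCNA4, KCNC2, KCNH1, KCNH5, KCNH8 and KCNQ3 were called at neither stage.

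**Figure D3:**
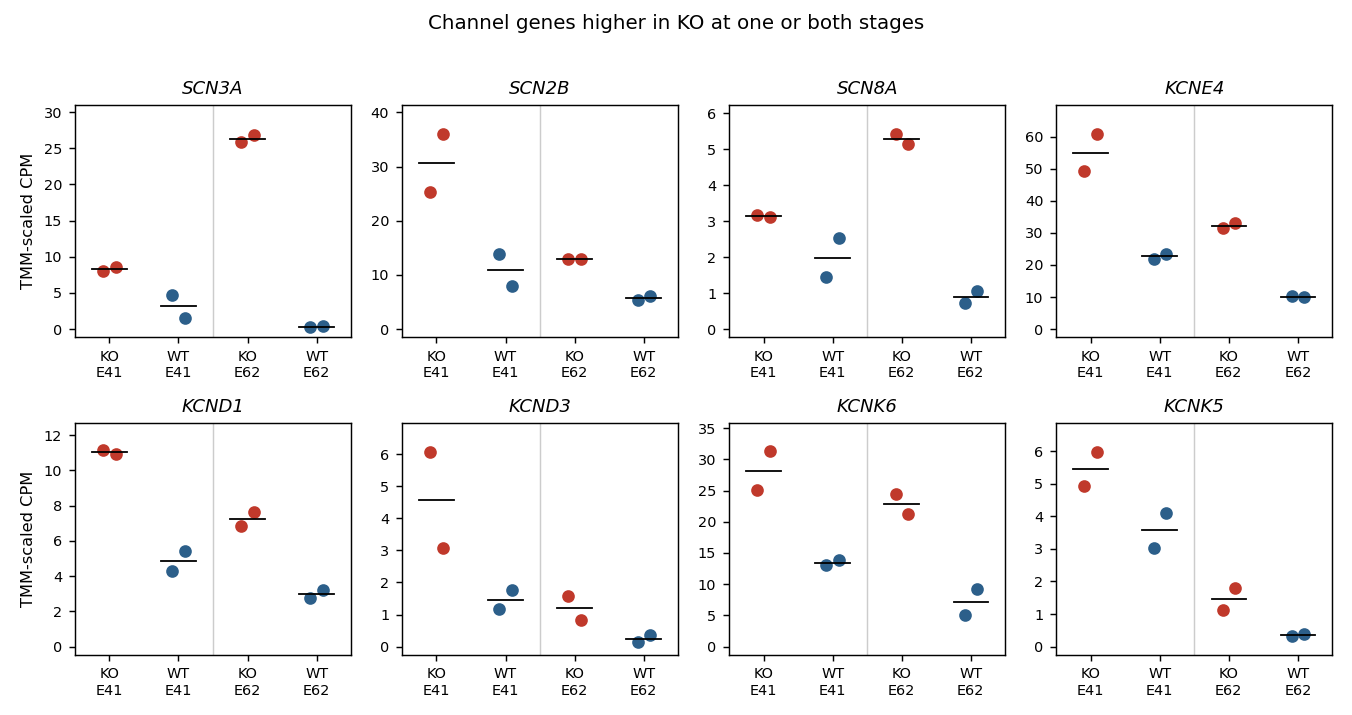
TMM-scaled CPM (y axis) of 8 channel genes higher in KO at 1 or both stages, in KO and WT libraries at E41 and E62 (x axis); points are libraries and bars are the means of 2. SCN3A stands at 25.8 and 26.8 CPM in KO E62, against 0.241 and 0.442 CPM in WT E62, while the E41 replicates of KCND3 lie far apart in KO.

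Modifier alpha subunits form no channel alone and alter the gating of KCNB partners. KCNG2 had 0.251 and 0.0834 CPM in KO libraries, against 4.57 and 5.09 CPM in WT libraries at E62 (log2 fold change -4.81 ± 0.52, adjusted p = 0.00025), with KO above WT at E41 but no call (2.88 and 2.24 CPM in KO, against 1.26 and 1.99 in WT; 0.65 ± 0.45, adjusted p = 0.28). KCNF1 fell to 0.605 and 0.718 CPM in KO E62, against 1.47 and 1.33 CPM in WT E62 (log2 fold change -1.08 ± 0.32, adjusted p = 0.025). KCNG1 had 0.649 and 0.534 CPM in KO libraries, against 1.504 and 1.65 CPM in WT libraries at E62 (log2 fold change -1.41 ± 0.34, adjusted p = 0.011). KCNS2 was the modifier with higher levels in KO. It had 1.18 and 1.13 CPM in KO libraries, against 0.386 and 0.177 CPM in WT libraries at E41 (log2 fold change 2.04 ± 0.63, adjusted p = 0.036), and at E62 27 and 30 counts in KO, against 1 and 0 counts in WT, a ratio of scaled counts 29.996-fold higher (95% interval 5.17 to 1205), adjusted p = 0.0045. KCNS2 lost its call at E41 in 5 of 14 alternatives, by DESeq2, with the replicate block, and without KO E41 replicate 1 or 2 or WT E41 replicate 2 (adjusted p = 0.052 to 0.13). KCNF1 lost its call at E62 in 7 of 14 alternatives, with library size alone, and without KO E41 replicate 1 or 2, KO E62 replicate 1 or 2 or WT E62 replicate 1 or 2 (adjusted p = 0.051 to 0.10). KCNG1 lost its call at E62 without KO E62 replicate 2 (adjusted p = 0.051). KCNS1, KCNS3 and KCNV1 passed the test at neither stage.

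Auxiliary subunits bind pore-forming subunits and change their trafficking or gating. Of 14 tested, 2 were higher and 4 lower in KO at E41, and 3 higher and 2 lower at E62. The called share was 42.9% at E41 and 35.7% at E62, beside 39.2% and 47.2% of all genes. KCNE4, a single-span subunit that inhibits several voltage-gated channels, rose at both stages, with 49.2 and 60.97 CPM in KO libraries, against 21.8 and 23.5 CPM in WT libraries at E41 (log2 fold change 1.28 ± 0.12, adjusted p = 0.00025), and 31.4 and 33.1 CPM in KO libraries, against 10.4 and 9.87 CPM in WT libraries at E62 (log2 fold change 1.67 ± 0.13, adjusted p = 4.0e-05). KCNE3, a partner of KCNC4 in skeletal muscle, had 1.94 and 1.93 CPM in KO libraries, against 3.33 and 4.82 CPM in WT libraries at E41 (log2 fold change -1.08 ± 0.301, adjusted p = 0.025), and 4.898 and 4.29 CPM in KO, against 3.49 and 5.27 in WT at E62 (0.069 ± 0.29, adjusted p = 0.86). KCNE3 lost its call at E41 in 4 of 14 alternatives, with library size alone, and without KO E41 replicate 1 or 2 or WT E41 replicate 2 (adjusted p = 0.061 to 0.12). KCNIP1 and KCNIP4 encode calcium-binding partners of the Shal channels. KCNIP1 had 1.96 and 1.82 CPM in KO libraries, against 0.511 and 0.383 CPM in WT libraries at E62 (log2 fold change 2.07 ± 0.34, adjusted p = 0.0017; at E41 0.52 ± 0.31, adjusted p = 0.22), and it overlaps KCNMB1 in the annotation. KCNIP4 had 4.76 and 3.995 CPM in KO libraries, against 1.16 and 1.504 CPM in WT libraries at E41 (log2 fold change 1.71 ± 0.52, adjusted p = 0.034), and 3.44 and 1.13 CPM in KO, against 2.77 and 3.98 in WT at E62 (-0.56 ± 0.49, adjusted p = 0.38). KCNIP4 lost its call at E41 in 5 of 14 alternatives, with the replicate block, and without KO E41 replicate 1 or 2 or WT E41 replicate 1 or 2 (adjusted p = 0.055 to 0.15). KCNRG, a cytosolic regulator of potassium channel assembly, had 1.73 and 2.29 CPM in KO libraries, against 0.962 and 0.795 CPM in WT libraries at E62 (log2 fold change 1.19 ± 0.42, adjusted p = 0.049). KCNRG lost its call at E62 in 10 of 14 alternatives, by DESeq2, without the low-count filter, after thinning to the smallest library, with the replicate block, and without KO E41 replicate 1 or 2, KO E62 replicate 1 or 2 or WT E62 replicate 1 or 2 (adjusted p = 0.056 to 0.18).

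All 3 cytoplasmic beta subunits of the Shaker channels were lower in KO at E41. KCNAB2 had 15.8 and 19.7 CPM in KO libraries, against 67.6 and 49.8 CPM in WT libraries at E62 (log2 fold change -1.73 ± 0.17, adjusted p = 0.00014), and 21.9 and 21.8 CPM in KO libraries, against 31.8 and 29.3 CPM in WT libraries at E41 (log2 fold change -0.48 ± 0.17, adjusted p = 0.0495). KCNAB2 lost its call at E41 in 8 of 14 alternatives, with RLE factors, with library size alone, without the low-count filter, with the replicate block, and without KO E41 replicate 1 or 2 or WT E41 replicate 1 or 2 (adjusted p = 0.050 to 0.39). KCNAB1 had 5.96 and 7.56 CPM in KO libraries, against 16.9 and 13.9 CPM in WT libraries at E41 (log2 fold change -1.19 ± 0.28, adjusted p = 0.012), and 5.13 and 5.57 CPM in KO libraries, against 15.2 and 8.51 CPM in WT libraries at E62 (log2 fold change -1.15 ± 0.28, adjusted p = 0.011). KCNAB1 lost its call at E41 without KO E41 replicate 1 (adjusted p = 0.084) or WT E41 replicate 1 (0.076). KCNAB1 lost its call at E62 without WT E62 replicate 1 (adjusted p = 0.068). KCNAB3 differed little, with 43.2 and 40.5 CPM in KO libraries, against 52.9 and 57.2 CPM in WT libraries at E41 (log2 fold change -0.396 ± 0.101, adjusted p = 0.017), and 39.996 and 40.05 CPM in KO, against 42.4 and 36.5 in WT at E62 (0.021 ± 0.101, adjusted p = 0.87). KCNAB3 lost its call at E41 in 4 of 14 alternatives, with library size alone, and without KO E41 replicate 1 or 2 or WT E41 replicate 2 (adjusted p = 0.060 to 0.46). KCNE1, KCNIP2, KCNIP3 and the BK partners KCNMB1, KCNMB2 and KCNMB4 were called at neither stage.

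Calcium- and sodium-activated potassium channels link the membrane potential to internal ions. Of 7 tested, 2 were higher and 3 lower in KO at E41, and 1 higher and 5 lower at E62. Calls made up 71.4% at E41 and 85.7% at E62, beside 39.2% and 47.2% of all genes. KCNN3, at chr4:94913631-95112845, encodes the small-conductance channel of immature and denervated muscle, and it overlaps PMVK in the annotation. It had 4.198 and 4.54 CPM in KO libraries, against 14.9 and 15.9 CPM in WT libraries at E41 (log2 fold change -1.82 ± 0.14, adjusted p = 9.9e-05), and 3.89 and 4.81 CPM in KO libraries, against 41.9 and 38.9 CPM in WT libraries at E62 (log2 fold change -3.22 ± 0.15, adjusted p = 2.6e-06). KCNN2, its neuronal and cardiac relative, had 1.21 and 1.82 CPM in KO libraries, against 5.02 and 3.05 CPM in WT libraries at E41 (log2 fold change -1.41 ± 0.35, adjusted p = 0.015), and 0.944 and 1.03 CPM in KO libraries, against 6.47 and 8.92 CPM in WT libraries at E62 (log2 fold change -2.96 ± 0.36, adjusted p = 0.00045). KCNN2 lost its call at E41 without KO E41 replicate 1 (adjusted p = 0.10) or WT E41 replicate 1 (0.092). KCNMA1, the large-conductance channel of smooth muscle and neurons, had 10.05 and 5.42 CPM in KO libraries, against 50.3 and 54.1 CPM in WT libraries at E62 (log2 fold change -2.75 ± 0.47, adjusted p = 0.0052). At E41 the KO replicates of KCNMA1 were apart (8.76 and 20.8 CPM in KO, against 29.3 and 26.99 in WT; -0.93 ± 0.45, adjusted p = 0.16), and the gene was called there by DESeq2 (adjusted p = 0.034) and without KO E41 replicate 2 (adjusted p = 0.023). The summed level of 9 smooth muscle and pericyte markers was 705 to 735 CPM in KO E41, 733 to 860.5 in KO E62, 1437 to 1646 in WT E41 and 1866 to 1971 in WT E62. Without ACTA2, which early skeletal muscle also expresses, the sum was 639 to 668 CPM in KO E41, 604 to 745 in KO E62, 606 to 674 in WT E41 and 840.4 to 1076 in WT E62. The part of these markers in the KCNMA1 result was not tested. KCNT1, a sodium-activated channel of neurons, had 0.517 and 0.75997 CPM in KO libraries, against 2.27 and 1.55 CPM in WT libraries at E41 (log2 fold change -1.57 ± 0.48, adjusted p = 0.033), and 0.502 and 0.934 CPM in KO libraries, against 2.77 and 4.62 CPM in WT libraries at E62 (log2 fold change -2.36 ± 0.47, adjusted p = 0.0046). KCNT1 lost its call at E41 in 4 of 14 alternatives, with library size alone, and without KO E41 replicate 1 or 2 or WT E41 replicate 1 (adjusted p = 0.058 to 0.17).

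Its relative KCNT2 was higher in KO, with 14.7 and 16.4 CPM in KO libraries, against 9.52 and 8.98 CPM in WT libraries at E41 (log2 fold change 0.75 ± 0.15, adjusted p = 0.0064), and 8.88 and 9.86 CPM in KO libraries, against 7.04 and 6.24 CPM in WT libraries at E62 (log2 fold change 0.497 ± 0.15, adjusted p = 0.028). KCNT2 lost its call at E41 without KO E41 replicate 2 (adjusted p = 0.059). KCNT2 lost its call at E62 in 5 of 14 alternatives, without KO E41 replicate 1 or 2, KO E62 replicate 2 or WT E62 replicate 1 or 2 (adjusted p = 0.053 to 0.12). KCNT2 kept its call but had a log2 fold change at E62 of 0.801 with library size alone. KCNN1 fell at E62 to 1.84 and 1.75 CPM in KO libraries, against 3.01 and 3.92 CPM in WT libraries (log2 fold change -0.94 ± 0.24, adjusted p = 0.013). KCNN1 lost its call at E62 with library size alone (adjusted p = 0.051) and without WT E62 replicate 2 (0.073). KCNN4, the intermediate-conductance channel of blood cells and epithelia, had 39 and 43 counts in KO E41, against 2 and 1 counts in WT E41, a ratio of scaled counts 12.8-fold higher (95% interval 4.23 to 63.3), adjusted p = 0.024. KCNN4 lost its call at E41 in 4 of 14 alternatives, without KO E41 replicate 1 or 2 or WT E41 replicate 1 or 2 (adjusted p = 0.068 to 0.11).

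Potassium channels with a pair of pore domains per subunit carry background current. Of 8 tested, 1 was higher in KO at E41, and 3 were higher and 1 lower at E62. This was 12.5% called at E41 and 50% at E62, beside 39.2% and 47.2% of all genes. KCNK6 had 25.1 and 31.3 CPM in KO libraries, against 13.1 and 13.8 CPM in WT libraries at E41 (log2 fold change 1.07 ± 0.26, adjusted p = 0.015), and 24.5 and 21.3 CPM in KO libraries, against 5.14 and 9.25 CPM in WT libraries at E62 (log2 fold change 1.67 ± 0.26, adjusted p = 0.0018). KCNK6 lost its call at E41 in 3 of 14 alternatives, without KO E41 replicate 2 or WT E41 replicate 1 or 2 (adjusted p = 0.071 to 0.081). KCNK5, an acid-sensitive channel, had 1.14 and 1.79 CPM in KO libraries, against 0.331 and 0.383 CPM in WT libraries at E62 (log2 fold change 2.02 ± 0.37, adjusted p = 0.0030; at E41 0.61 ± 0.32, adjusted p = 0.17). KCNK12 had 1.49 and 2.85 CPM in KO libraries, against 0.632 and 0.825 CPM in WT libraries at E62 (log2 fold change 1.57 ± 0.52, adjusted p = 0.038). KCNK7 fell to 0.974 and 0.384 CPM in KO E62, against 1.98 and 2.06 CPM in WT E62 (log2 fold change -1.57 ± 0.4998, adjusted p = 0.034). KCNK12 lost its call at E62 in 5 of 14 alternatives, without KO E41 replicate 1 or 2, KO E62 replicate 2 or WT E62 replicate 1 or 2 (adjusted p = 0.059 to 0.18). KCNK7 lost its call at E62 in 6 of 14 alternatives, with library size alone, and without KO E41 replicate 1 or 2, KO E62 replicate 2 or WT E62 replicate 1 or 2 (adjusted p = 0.058 to 0.13). KCNK7 kept its call but had a log2 fold change at E62 of -2.39 without KO E62 replicate 1. KCNK1, KCNK2, KCNK3 and KCNK13 passed the test at neither stage.

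Among the 14 genes with too few counts to test, KCNK4 and KCNA1 had the widest gaps in counts. KCNK4 had 8 and 22 counts in KO E62, against 0 and 0 in WT E62, at least 5.26-fold higher against the floor. KCNA1 had 1 and 30 counts in KO E41, against 0 and 1 in WT E41, so that nearly all its counts there came from KO replicate 2. Others in this group were KCNA2, KCNG3, KCNH4, KCNJ9, KCNK9, KCNK10, KCNK15, KCNK16, KCNK17, KCNMB3 and KCNU1, with at most 22 counts in any library. No test was made on any of them.

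The knockout effect itself differed between the stages in 24 channel genes. The test of that difference (effect at E62 minus effect at E41) called 8 higher and 16 lower, 26.1% of those tested, against 26.8% of all genes (11.2% higher, 15.5% lower). Without KO E41 replicate 2, 13 were called. KCNG2 had the most negative difference of the called genes (-5.46 ± 0.68, adjusted p = 0.0018), then KCNH7 (-3.69 ± 0.59, adjusted p = 0.0044) and KCNJ3 (-3.36 ± 0.56, adjusted p = 0.0052). For KCNH7 a fall at E41 was larger at E62, with KO counts of 4 and 2 at E41 and 3 and 2 at E62. The stage change of KCNH7 was not called in KO (-0.69 ± 0.503, adjusted p = 0.52), while in WT it was a rise (3.004 ± 0.22, adjusted p = 0.00020). On the positive side SCN3A had a difference of 4.86 ± 0.72, adjusted p = 0.0046, SCN3B one of 2.403 ± 0.48, adjusted p = 0.016 and KCNB2 one of 2.202 ± 0.56, adjusted p = 0.023. SCN3B was lower in KO at both stages, and less so at E62. KCNJ6 was called too (adjusted p = 0.020), with 3 counts over WT E62 setting its size. KCNH7 lost its call in the difference between stages without KO E41 replicate 1 (adjusted p = 0.12). SCN3B lost its call in the difference between stages in 3 of 14 alternatives, without KO E41 replicate 1 or 2 or WT E41 replicate 1 (adjusted p = 0.054 to 0.068). KCNB2 lost its call in the difference between stages in 7 of 14 alternatives, after thinning to the smallest library, and without KO E41 replicate 1 or 2, WT E41 replicate 1, KO E62 replicate 1 or WT E62 replicate 1 or 2 (adjusted p = 0.052 to 0.088). KCNJ6 lost its call in the difference between stages in 3 of 14 alternatives, without KO E41 replicate 1 or 2 or WT E62 replicate 2 (adjusted p = 0.058 to 0.070). KCNJ6 kept its call but had a log2 fold change in the difference between stages of 9.65 without WT E62 replicate 1.

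**Figure D4:**
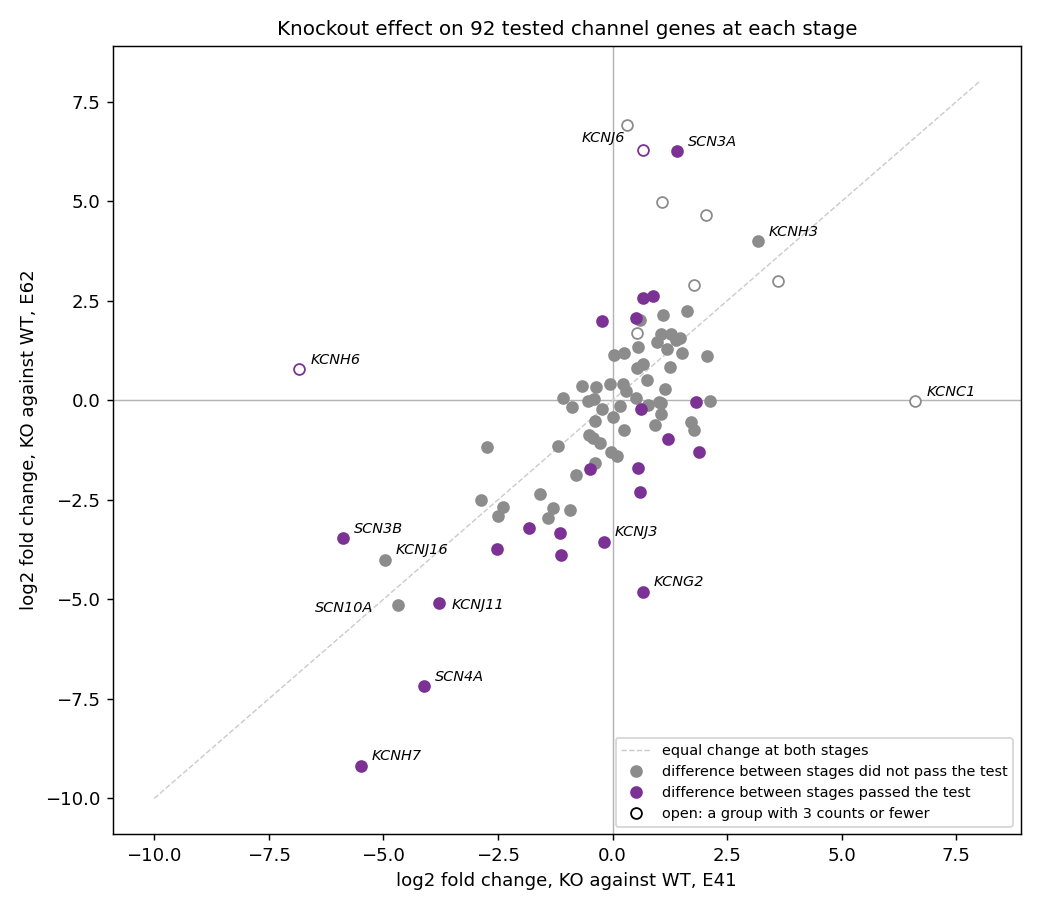
Log2 fold change of KO over WT at E62 (y axis) against the same at E41 (x axis) for 92 tested channel genes; purple points passed the test of the difference between stages, open points have a group with 3 counts or fewer and their position is a fitted value, and the dashed line marks equal change. SCN4A and KCNH7 lie below the line, and SCN3A lies above it.

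Within each genotype, E62 was set against E41. In KO, 8 channel genes were higher and 22 lower at E62, 32.6% of those tested, against 30.1% of all genes (12.1% higher, 18.0% lower). In WT, 19 were higher and 21 lower, 43.5%, against 39.8% of all genes (19.8% higher, 20.0% lower). Groups did not overlap for 67 of the 92 tested channel genes in each genotype. Over all 17020 genes this held for 12818 (75.3%) in KO and 12042 (70.8%) in WT. Single libraries moved these counts. The KO count was 14 without KO E41 replicate 1, 12 without KO E41 replicate 2 and 17 without KO E62 replicate 2. The WT count was 26 without WT E41 replicate 1, 25 without WT E62 replicate 1 and 26 without WT E62 replicate 2. These comparisons use the same libraries as those between genotypes.

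In WT muscle, among called genes with a mean of at least 1 CPM over the 8 libraries, large rises toward E62 were those of SCN4A, KCNH7 and SCN1A. SCN4A had 36.0 and 53.6 CPM at E62, against 3.62 and 4.29 CPM at E41 (log2 fold change 3.499 ± 0.34, adjusted p = 0.00052), a stage change not called in KO (0.42 ± 0.49, adjusted p = 0.54). KCNH7 had 22.6 and 26.3 CPM at E62, against 2.802 and 3.27 CPM at E41 (log2 fold change 3.004 ± 0.22, adjusted p = 0.00020). For SCN1A the levels were 7.22 and 13.7 CPM at E62, against 1.93 and 1.68 CPM at E41 (log2 fold change 2.53 ± 0.46, adjusted p = 0.0044). The 4 largest falls were KCNJ6, KCNK5, SCN3A and KCNJ15. KCNJ6 had 3 and 0 counts in WT E62, against 24 and 119 in WT E41, a ratio of scaled counts 73.97-fold lower (95% interval 24.8 to 363), adjusted p = 0.0051. KCNK5 had 0.331 and 0.383 CPM at E62, against 3.04 and 4.11 CPM at E41 (log2 fold change -3.32 ± 0.38, adjusted p = 0.00077). SCN3A had 0.241 and 0.442 CPM at E62, against 4.78 and 1.55 CPM at E41 (log2 fold change -3.19 ± 0.57, adjusted p = 0.0056). KCNJ15 had 0.902 and 0.5595 CPM at E62, against 4.396 and 5.66 CPM at E41 (log2 fold change -2.78 ± 0.53, adjusted p = 0.0059). SCN3A kept its call but had a log2 fold change within WT of -2.09 without WT E41 replicate 1. Of markers of other tissues in WT, 6 of 10 neuron markers and 2 of 4 epidermis markers were lower at E62 than at E41, and 0 higher. Over all genes 19.8% were higher and 20.0% lower. Other lists differed from this, with 2 higher and 0 lower of 9 smooth muscle and pericyte markers and 2 higher and 1 lower of 7 endothelium markers. Of 8 macrophage markers 1 was higher and 1 lower, and of 9 Schwann cell markers 1 was higher and 2 lower. The part of the neuron and epidermis markers, with the sums given above, in the falls of SCN3A and KCNJ15 was not tested.

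In KO tissue, under the same condition, the 4 largest rises toward E62 were SCN3B, SCN3A, KCNRG and KCNE3. SCN3B had 16.9 and 31.2 CPM at E62, against 4.18 and 4.39 CPM at E41 (log2 fold change 2.49 ± 0.36, adjusted p = 0.0056). SCN3A had 25.8 and 26.8 CPM at E62, against 8.01 and 8.598 CPM at E41 (log2 fold change 1.66 ± 0.43, adjusted p = 0.028), opposite in sign to its change in WT. KCNRG had 1.73 and 2.29 CPM at E62, against 0.775 and 0.499 CPM at E41 (log2 fold change 1.65 ± 0.42, adjusted p = 0.023), and KCNE3 4.898 and 4.29 CPM at E62, against 1.94 and 1.93 CPM at E41 (log2 fold change 1.25 ± 0.296, adjusted p = 0.018). The 4 largest falls were KCNG2, KCNJ3, KCNJ15 and KCNA3. KCNG2 had 0.251 and 0.0834 CPM at E62, against 2.88 and 2.24 CPM at E41 (log2 fold change -3.89 ± 0.51, adjusted p = 0.0023), and KCNJ3 0.148 and 0.217 CPM at E62, against 2.39 and 2.71 CPM at E41 (log2 fold change -3.79 ± 0.43, adjusted p = 0.0015). KCNJ15, an inward rectifier known from epithelia, fell in KO as in WT, with 2.95 and 1.05 CPM at E62, against 11.4 and 8.34 CPM at E41 (log2 fold change -2.29 ± 0.48, adjusted p = 0.013). KCNA3, a channel known from lymphocytes, had 0.634 and 0.384 CPM at E62, against 1.81 and 2.65 CPM at E41 (log2 fold change -2.12 ± 0.47, adjusted p = 0.014). SCN3A lost its call within KO in 4 of 14 alternatives, without KO E41 replicate 1 or 2 or KO E62 replicate 1 or 2 (adjusted p = 0.056 to 0.15). KCNRG lost its call within KO in 3 of 14 alternatives, without KO E41 replicate 1 or 2 or KO E62 replicate 2 (adjusted p = 0.076 to 0.14). KCNE3 lost its call within KO in 3 of 14 alternatives, without KO E41 replicate 1 or 2 or KO E62 replicate 1 (adjusted p = 0.052 to 0.10). KCNJ15 lost its call within KO without KO E41 replicate 1 (adjusted p = 0.072). KCNA3 lost its call within KO without KO E41 replicate 2 (adjusted p = 0.090) or KO E62 replicate 2 (0.063).

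**Figure D5:**
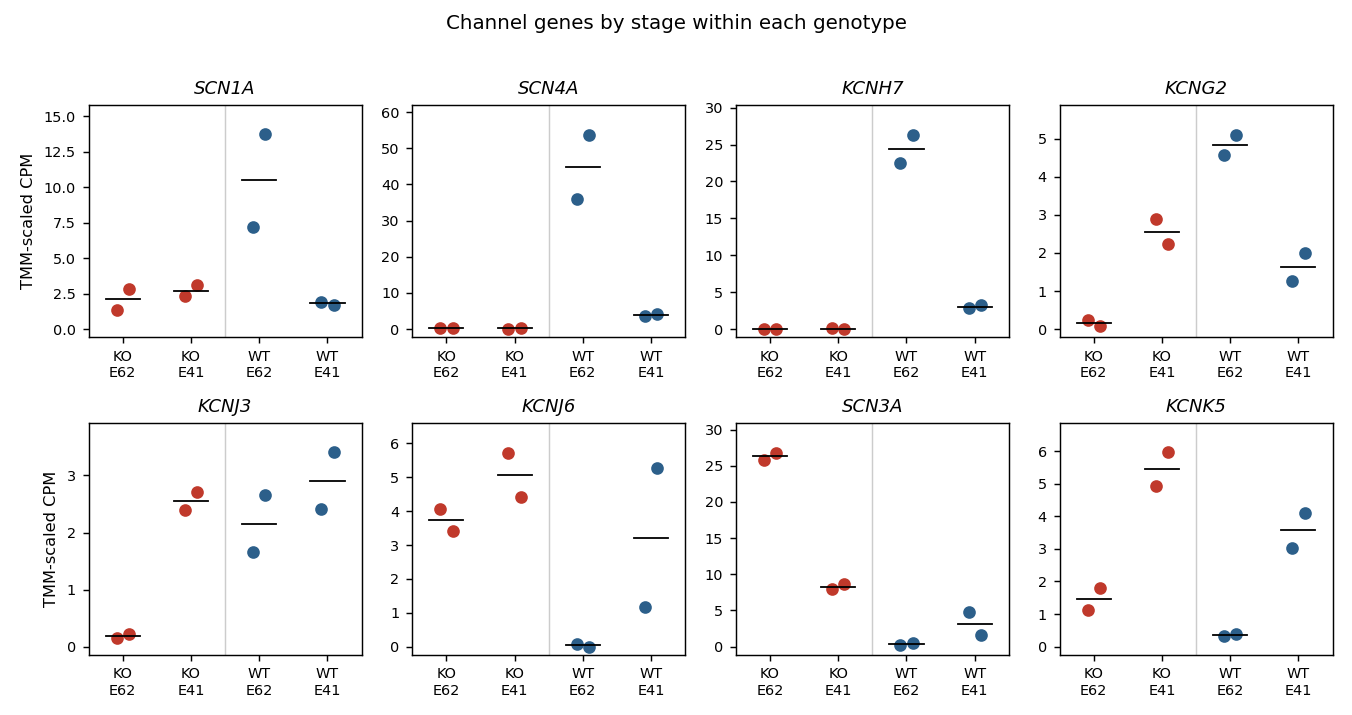
TMM-scaled CPM (y axis) of 8 channel genes at E62 and E41 within KO and within WT (x axis); points are libraries and bars are the means of 2. SCN1A, SCN4A and KCNH7 are highest in WT E62, SCN3A is highest in KO E62, and KCNG2 and KCNJ3 are lowest in KO E62.

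Gene lists by usual site of use gave the following counts, beside 18.5% higher and 20.8% lower of all genes at E41 and 21.0% higher and 26.2% lower at E62. Of 16 tested channels of skeletal muscle excitability, 4 were higher and 5 lower in KO at E41, and 2 higher and 7 lower at E62 (median log2 fold change 0.26 and -0.38). In KO 3 of these 16 were higher and 1 lower at E62 than at E41, beside 12.1% higher and 18.0% lower of all genes. In WT 9 were higher and 1 lower, beside 19.8% higher and 20.0% lower of all genes. The test of the difference between stages in the knockout effect, which is also that between genotypes in the stage effect, called 5 of the 16 lower and 0 higher, beside 11.2% higher and 15.5% lower of all genes. Of 15 neuronal and axonal channels, 1 was higher and 5 lower at E41, and 3 higher and 7 lower at E62 (median -0.052 and -0.87). Of 8 smooth muscle and vascular channels, 3 were higher and 1 lower at E41, and 1 higher and 3 lower at E62 (median 0.72 and 0.49). Of 6 chondrocyte, glial and epithelial channels, 1 was higher and 1 lower at E41, and 1 lower at E62 (median 0.61 and -0.85).

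Partners that anchor or regulate these channels were listed separately. Of 19 tested, 5 were higher and 4 lower in KO at E41, where 39.2% of all genes were called, and 3 higher and 9 lower at E62, where 47.2% were (median -0.066 and -1.15). ANK2, an ankyrin that anchors channels and pumps, had 68.1 and 66.4 CPM in KO libraries, against 364 and 304 CPM in WT libraries at E41 (log2 fold change -2.31 ± 0.12, adjusted p = 7.6e-06), and 138 and 137 CPM in KO libraries, against 570.1 and 621 CPM in WT libraries at E62 (log2 fold change -2.11 ± 0.11, adjusted p = 6.8e-06). DPP10, a Shal channel partner, rose at both stages, with 36.1 and 48.8 CPM in KO libraries, against 5.75 and 6.06 CPM in WT libraries at E41 (log2 fold change 2.85 ± 0.27, adjusted p = 0.00026). At E62 DPP10 had 4.62 and 7.69 CPM in KO libraries, against 0.1203 and 0.0883 CPM in WT libraries (log2 fold change 5.84 ± 0.41, adjusted p = 3.2e-05). NEDD4L, a ubiquitin ligase that removes sodium channels from the membrane, had 46.6 and 45.4 CPM in KO libraries, against 89.2 and 104 CPM in WT libraries at E41 (log2 fold change -1.07 ± 0.095, adjusted p = 0.00018). AMIGO1, a partner of KCNB channels, had 14.9 and 15.2 CPM in KO libraries, against 56.5 and 45.03 CPM in WT libraries at E62 (log2 fold change -1.75 ± 0.13, adjusted p = 3.1e-05).

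Other genes of membrane excitability numbered 24 tested, with 6 higher and 6 lower in KO at E41, and 6 higher and 8 lower at E62, beside the same shares of all genes (median 0.23 and -0.17). CACNA1S, the voltage sensor of excitation-contraction coupling, had 0.129 and 0.0217 CPM in KO libraries, against 49.4 and 52.3 CPM in WT libraries at E41 (log2 fold change -9.34 ± 0.296, adjusted p = 6.8e-07), and 0.221 and 0.267 CPM in KO libraries, against 118 and 127 CPM in WT libraries at E62 (log2 fold change -8.96 ± 0.26, adjusted p = 2.6e-07). CHRNA1, a subunit of the acetylcholine receptor that is also among the muscle markers, had 0.689 and 0.369 CPM in KO libraries, against 763 and 625 CPM in WT libraries at E41 (log2 fold change -10.35 ± 0.43, adjusted p = 1.0e-05). ATP1B4, named as a subunit of the sodium pump, had 0.369 and 0.317 CPM in KO libraries, against 317 and 362 CPM in WT libraries at E62 (log2 fold change -9.93 ± 0.19, adjusted p = 3.9e-08). CACNA1H, a T-type calcium channel, had 15.4 and 16.5 CPM in KO libraries, against 195 and 164 CPM in WT libraries at E62 (log2 fold change -3.49 ± 0.11, adjusted p = 4.5e-07).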

How the data were processed

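The 8 bulk libraries were assigned to group and replicate by their sample titles. Their deposited values are estimated counts for each gene, whole numbers without normalization. Per the labels' protocols either a TruSeq RNA kit or its stranded mRNA version was used, and whether counting used strand is not given in the sources used here. The submitters' processing notes name Sscrofa11.1 and susScr11 as builds and list kallisto and DESeq2, with no role or version. Estimated counts divide reads among similar transcripts, so levels of close paralogs are less certain. Symbols came from a table of gene identifiers, and positions and overlaps from RefSeq genes of Sscrofa11.1, matched by symbol for 105 of 109 genes; 36 of these overlap another annotated gene.

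Counts were fitted in edgeR 4.0.16 (R 4.3.3) with TMM scaling, filterByExpr at a minimum count of 10, 1 mean per group over all 8 libraries and a robust quasi-likelihood F test, two-sided, on 4 residual degrees of freedom. P-values were adjusted by Benjamini-Hochberg over all 17020 tested genes, which held at least 99.98% of every library's counts. Sampling noise was exceeded within every replicate pair (chi-square over its degrees of freedom 28.1 to 61.9), so each library counted as 1. A group at 0 counts gives a fold of at least the ratio to 3 counts over the group, and 1 to 3 counts give a ratio with a 95% Clopper-Pearson interval, which covers counting error only. The steps were tested on simulated data. The alternatives were DESeq2 1.42.0, RLE factors, library size alone, no low-count filter, a block for the replicate number, thinning to the smallest library, and leaving out each library in turn; where this leaves 1 library in a group, that library is assumed to vary like the others.

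The genes, lists and markers were chosen with earlier results of these data known. The rule for naming took the measured list of skeletal muscle excitability, the 10 largest rises and falls with a mean of at least 1 CPM in each genotype comparison, 4 each way in the other comparisons, and the smallest p in each role; the other called channel genes were named after their values were seen. Partner and marker genes are described by counts, with values for a few of the smallest p. Genes with no mapped symbol were not analysed here, and single results of some channel genes, which the counts include, are not reported here.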

Additional observations from a re-analysis of the deposited data

Results flagged for a closer look

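In 24 channel genes the knockout effect differed between the stages by edgeR's test of the difference itself, the log2 effect at E62 minus that at E41. Among genes lower in KO at both stages, the fall was larger at E62 for KCNH7 (-3.69, adjusted p = 0.0044), SCN4A (-3.08, adjusted p = 0.011), KCNH2 (-2.19, adjusted p = 0.0079), KCNN3 (-1.3997, adjusted p = 0.0028), KCNJ11 (-1.31, adjusted p = 0.011), KCNAB2 (-1.24, adjusted p = 0.0078) and CLCN4 (-1.23, adjusted p = 0.018). The size for KCNH7 rests on KO counts of 4 and 2 at E41 and 3 and 2 at E62. Genes called lower at E62 and not called at E41 were KCNG2 (-5.46, adjusted p = 0.0018), KCNJ3 (-3.36, adjusted p = 0.0052), SCN1A (-2.904, adjusted p = 0.013), KCNA7 (-2.76, adjusted p = 0.011) and KCND2 (-2.28, adjusted p = 0.0088). Genes called higher at E41 and not called at E62 were KCNQ1 (-2.18, adjusted p = 0.023), KCNQ5 (-1.85, adjusted p = 0.016) and CLCN7 (-0.85, adjusted p = 0.036).

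In the positive direction, SCN3A was higher in KO at both stages and more so at E62 (4.86, adjusted p = 0.0046), and SCN3B was lower at both and less so at E62 (2.403, adjusted p = 0.016). Genes called higher at E62 and not called at E41 included KCNB2 (2.202, adjusted p = 0.023), SCN8A (1.899, adjusted p = 0.023) and KCNIP1 (1.55, adjusted p = 0.039). For KCNJ6 (5.64, adjusted p = 0.020) and KCNH6 (7.62, adjusted p = 0.0058) the fitted values rest on a group with 3 counts or fewer and are no measure of size. CLCN4 lost its call in the difference between stages in 3 of 14 alternatives, without KO E41 replicate 2, WT E41 replicate 2 or WT E62 replicate 1 (adjusted p = 0.059 in each). CLCN7 lost its call in the difference between stages in 8 of 14 alternatives, with the replicate block, and without KO E41 replicate 1 or 2, WT E41 replicate 1 or 2, KO E62 replicate 1 or WT E62 replicate 1 or 2 (adjusted p = 0.051 to 0.11). KCNQ1 lost its call in the difference between stages in 3 of 14 alternatives, without KO E41 replicate 1 or 2 or WT E62 replicate 1 (adjusted p = 0.057 to 0.087). KCNQ5 lost its call in the difference between stages without KO E41 replicate 2 (adjusted p = 0.060) or WT E41 replicate 2 (0.060). KCNIP1 lost its call in the difference between stages in 10 of 14 alternatives, without the low-count filter, after thinning to the smallest library, with the replicate block, and without KO E41 replicate 1 or 2, WT E41 replicate 1, KO E62 replicate 1 or 2 or WT E62 replicate 1 or 2 (adjusted p = 0.050 to 0.15). SCN1A lost its call in the difference between stages without WT E41 replicate 2 (adjusted p = 0.054). SCN4A lost its call in the difference between stages without KO E41 replicate 2 (adjusted p = 0.084). SCN8A lost its call in the difference between stages in 4 of 14 alternatives, without KO E41 replicate 1 or 2, WT E41 replicate 2 or WT E62 replicate 1 (adjusted p = 0.060 to 0.081).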

How the results depend on the processing

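With single libraries left out, the number of called channel genes was 20 to 39 at E41 (37 with all 8), 39 to 48 at E62 (46), 13 to 25 for the difference between stages (24), 12 to 31 for E62 against E41 in KO (30) and 25 to 44 in WT (40). Under DESeq2, RLE factors, library size alone, no low-count filter and thinning, these 5 counts stayed within 1.5 times. With the replicate number as a block they were 33, 47, 21, 28 and 34. Replicate differences correlated at -0.136 to 0.081 between groups, so no pairing by replicate number was seen. A pairing that touches only some genes cannot be told from these values. Of 2474 pairs of a named gene's result and an alternative, 2133 kept direction and side of the threshold, 318 lost the call, 3 gained it and 20 changed sign. The sign changes were in genes that were not called. KCNC1 at E62 was 0.032, 0.024 and 0.29 by DESeq2, with RLE factors and with library size alone, and 0.025 with the replicate block. KCNC4 at E62 was 0.015, 0.015 and 0.27 under the same settings, and 0.100 after thinning. KCNJ2 at E41 was -0.047 after thinning. Leaving out libraries gave ranges of -0.71 to 1.11 for KCNC1, -0.49 to 0.68 for KCNC4, -0.17 to 0.33 for CLCN1, -0.199 to 0.397 for KCNE3 and -0.78 to 0.083 for KCNJ2 at E62, and -0.34 to 0.27 for KCNJ2 at E41. The cause of these changes was not tested. With 2 libraries per group, and counts of 3 or fewer in some groups, changes in genes with few counts or with replicates far apart could go uncalled. Some small changes were called by edgeR's test, such as that of KCNAB3 at E41 (-0.396 ± 0.101, adjusted p = 0.017).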

Other observations

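Several channel genes lie beside each other on the RefSeq map of Sscrofa11.1, and neighbours did not always share a call. KCNJ16 (chr12:10393172-10538423) starts 12.5 kb from the end of KCNJ2 (chr12:10351959-10380631). KCNJ16 was lower in KO at both stages, and KCNJ2 was called at neither. The sodium channel genes SCN10A and SCN11A follow each other on chromosome 13, with a gap of 31.9 kb. SCN10A was lower at both stages and SCN11A called at neither. On chromosome 15, SCN1A, SCN9A and SCN7A are 48.99 and 33.8 kb apart. SCN7A was lower at both stages, SCN1A at E62, and SCN9A at neither. These are descriptions of position, and no test of neighbourhood was made.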
